A study of Mus musculus with 7 samples.

Results

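The chemokine ligand genes are the genes for small secreted proteins that guide the movement of cells. They were taken as all probe sets whose platform gene symbol begins with Ccl, Cxcl, Cx3cl or Xcl followed by a number and at most 1 further letter. The rule gave 38 genes, measured by 39 probe sets, of 19505 named genes in all. They comprised 23 Ccl genes, 13 Cxcl genes, Cx3cl1 and Xcl1. Cxcl11 is annotated as a transcribed pseudogene in the RefSeq table used for names. One of the Ccl21b sets and the Ccl21c set had identical values on all 7 arrays, so these near-identical copies cannot be told apart. The platelet chemokine genes Pf4 and Ppbp have other symbols and are not members.

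The study asked how the form of Mef2c given together with Gata4 and Tbx5 shapes direct reprogramming of mouse embryonic fibroblasts (MEFs) towards heart muscle, and what part the acetyltransferase p300, encoded by Ep300, has in it. RNA from 7 cultures was measured on 7 Clariom S mouse arrays, with 1 array per group and no replicates. Per the labels, the siEp300 cells received retroviruses for the factors and small interfering RNA (siRNA) against Ep300, and the siCtrl cells received viruses and a control siRNA. For both, the sample titles name isoform 2 of Mef2c (GT/M2), whereas the source names and characteristics name isoform 2 fused to the MyoD transactivation domain (GT/M2TAD), so they are called only siEp300 and siCtrl. Per the labels, the GT/M2TAD, GT/M6, GT/M2 and GT/M1 cells received Gata4 and Tbx5 with the MyoD fusion of isoform 2, with isoform 6, with isoform 2 or with isoform 1 of Mef2c, and no siRNA. The MEF cells were not treated. Tbx5 and Mef2c had at least 14.82 and 18.32 on all 6 transduced arrays, against 5.72 and 8.24 on MEF, but Gata4 had 3.57 to 5.09 on the transduced arrays and 4.22 on MEF, so these data do not show the delivery of Gata4. Transduced cells were collected after 1 week. The harvest time of the MEF cells, the age and strain of the embryos and the promoters of the viruses are not stated in the sources used here, and no array carried virus without the factors. Infection, the factors and time in culture therefore cannot be told apart in any comparison with MEF, and the addition of siRNA and the other differences between preparations cannot be told apart in comparisons of siCtrl with arrays without siRNA.

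The values are log2 signals, so a difference of 1 is a 2-fold difference in signal. Because there was 1 array per group, no difference has an error, a test or a p-value, and the number of arrays limits the precision. Signals were read against the negative-control probes of the same array, whose 95th percentile lay between 8.43 and 9.33. These are single probes, and probe sets combine several, so this is a strict limit. A gene was counted as 2-fold apart when the log2 difference was at least 1 either way and the higher signal reached that percentile of its own array. Between 23.7% and 29.6% of all named genes reached it on an array. Of 6 cardiomyocyte markers, 4 reached the percentile on siEp300 and siCtrl, 5 on GT/M2TAD, 6 on GT/M6, GT/M2 and GT/M1, and 1 on MEF. Myh6 fell short on siEp300, siCtrl and GT/M2TAD, and Ryr2 on siEp300 and siCtrl. Tnnt2 lay between 16.79 and 17.67 on the transduced arrays, against 7.61 on MEF. Of the 7 measured fibroblast markers, 5 to 7 reached the percentile on every array. Macrophage, T cell, dendritic, and granulocyte and mast cell markers reached it on no array, with 26 genes measured over the 4 lists. Leukocyte markers were therefore not shown to differ from background.

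Chemokines are grouped by the spacing of conserved cysteines near the amino end, and act through receptors of the G protein-coupled family on the cells they attract. Most are induced: inflammatory signals that act through NF-kappaB or interferon factors switch on genes such as Ccl2, Cxcl1 and Cxcl10. Others are made constantly by stromal cells, of which Cxcl12 is the best known. Fibroblasts are a source of both kinds, and in the heart Ccl2 draws monocytes after injury.

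The sequences before the start sites of Ccl17, Cxcl12 and Cx3cl1 are shown. These genes differed most between arrays among the members found in the promoter table. Ccl17 and Cx3cl1 are also neighbours. On siEp300, siCtrl and GT/M2TAD they differed from MEF in opposite directions, with Cx3cl1 below the negative-control percentile on every array. Each sequence is the 250 bases before the start site, from RefSeq (GRCm38.p6), 5′ to 3′ on the gene's own strand. That is the plus strand for all of them. The windows are chr8:94810203-94810452 for Ccl17, chr6:117168285-117168534 for Cxcl12 and chr8:94771930-94772179 for Cx3cl1. Capitals mark matches to the motifs named in the next paragraph, other than the E-box.
Ccl17: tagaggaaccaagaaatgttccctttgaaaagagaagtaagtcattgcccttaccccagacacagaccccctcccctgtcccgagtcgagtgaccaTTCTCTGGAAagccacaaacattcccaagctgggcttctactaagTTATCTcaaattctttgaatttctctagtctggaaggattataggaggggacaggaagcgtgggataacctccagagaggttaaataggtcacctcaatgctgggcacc
Cxcl12: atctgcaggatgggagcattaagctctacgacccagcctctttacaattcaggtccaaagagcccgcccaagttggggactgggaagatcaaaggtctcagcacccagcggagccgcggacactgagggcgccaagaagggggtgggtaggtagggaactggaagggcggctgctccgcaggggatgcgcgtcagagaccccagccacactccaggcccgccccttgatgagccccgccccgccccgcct
Cx3cl1: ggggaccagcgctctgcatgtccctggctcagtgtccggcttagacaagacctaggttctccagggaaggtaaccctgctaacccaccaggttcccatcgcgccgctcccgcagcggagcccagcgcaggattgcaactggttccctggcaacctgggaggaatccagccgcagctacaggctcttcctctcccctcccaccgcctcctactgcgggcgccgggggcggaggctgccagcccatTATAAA

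The promoter table held 26 of the 38 members. Both strands of the 250 bases were searched for 7 motifs. The STAT6 letters, TTC and GAA with 4 bases between, belong to a factor that acts after interleukin-4. They were found before Ccl17 and before no other member in the table, and 5.85% of all 32851 windows of the same length held them. The GATA letters AGATAA were found before Ccl17, Ccl27a and Cxcl10, and in 9.99% of all windows. In the Ccl17 sequence the first capitals are the STAT6 letters and the second are the GATA letters, read on the minus strand. For MEF2, CTA and TAG were searched with any 4 bases between. This pattern is looser than the MEF2 box, whose inner bases are A or T. It was found before Ccl3 alone, and in 3.20% of windows. The Ccl3 match, CTATTCTTAG, has a C among the inner bases. The NF-kappaB letters, GGGA and TTTCC with 1 base between, were found before Cxcl1, Cxcl2 and Cxcl3, each time as GGGAATTTCC, and in 0.356% of windows. The T-box letters AGGTGT were found before Ccl20 and Ccl28, and in 11.8% of windows. The TATA box letters TATAAA were found before 9 members, Cx3cl1 among them, and in 12.4% of windows. The Cx3cl1 match lies at the end of the window, beginning at -6 from the start site. The E-box letters CANNTG were found before 20 of the 26 and in 66.2% of windows, with none before Ccl17 or Cxcl12. The letters of the T-box and the E-box can share bases. These are matches of letters and were not tested as binding sites.

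Most chemokine ligand genes did not pass the strict limit of the negative controls in these cells. On the siEp300, siCtrl, GT/M2TAD, GT/M6, GT/M2, GT/M1 and MEF arrays, 2, 2, 2, 1, 1, 0 and 2 of the 38 members reached the 95th percentile of the negative controls. Of all named genes, 29.6%, 28.6%, 26.3%, 25.6%, 28.2%, 23.7% and 26.2% did so, in the same order. Only Ccl17, Cxcl12 and Ccl2 of the members reached it on any array, and 35 members on none. The share of all genes that reached it on none was not counted. A further 9 members reached the median of all named genes, between 5.38 and 5.71, on at least 1 array. They were Ccl6, Ccl7, Ccl8, Ccl9, Ccl25, Ccl27a, Cx3cl1, Cxcl14 and Cxcl16. The other 26 lay below that median everywhere, with signals between 2.28 and 5.31, and 21 of them varied by less than 1 over the 7 arrays. Of the members just outside the limit, Ccl7 had 8.80 on MEF, where the percentile was 8.81, and Cx3cl1 had 8.43.

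**Figure D1:**
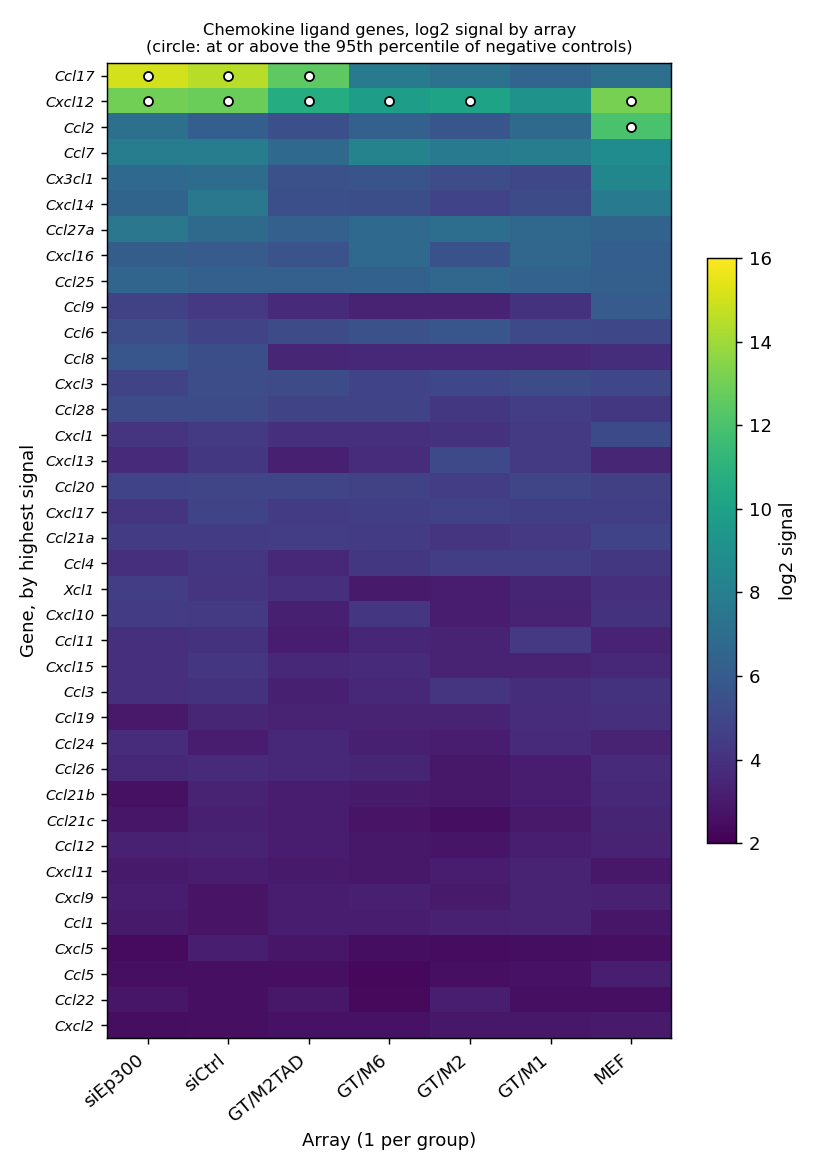
Log2 signal (colour) of the 38 chemokine ligand genes (rows, ordered by highest signal) on the 7 arrays (columns, 1 per group). Circles mark signals at or above the array's 95th percentile of negative controls, which are seen in Ccl17, Cxcl12 and Ccl2 only.

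Ccl17 was the member with the highest signal and the widest range. It encodes a ligand of the receptor Ccr4 that attracts T helper cells and is best known as a product of dendritic cells. Its signal was 15.03 on siEp300, 14.48 on siCtrl, 12.52 on GT/M2TAD, 7.76 on GT/M6, 7.29 on GT/M2, 6.59 on GT/M1 and 7.14 on MEF. The siEp300, siCtrl and GT/M2TAD arrays were high, and the other 4 all lay below the negative-control percentile of their arrays. These sets were drawn from the Ccl17 values themselves. The 3 high arrays are those whose labels name the MyoD fusion in at least 1 field, and the GT/M2 array, which the titles of the siRNA arrays name, was low. In bulk samples, more cells of a type and more RNA per cell cannot be told apart. The dendritic cell list, 5 genes measured of 5, had none at the percentile on any array, and its log2 summed signal was 6.31 on siEp300, 5.91 on siCtrl, 5.86 on GT/M2TAD and 5.98, 6.06, 6.27 and 6.34 on GT/M6, GT/M2, GT/M1 and MEF.

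GT/M2TAD was set against GT/M2 to ask what differed when isoform 2 carried the MyoD domain. Ccl17 was the only one of the 38 members counted as 2-fold apart, with a log2 difference of 5.24 or a signal ratio of 37.7. It was the highest difference among the 19505 genes, at rank 1. Of all genes, 1.97% were 2-fold higher and 1.86% were 2-fold lower by the same rule. The median difference was 0.030 over the members and 0.002 over all genes. Cxcl12 was at 10.64 on GT/M2TAD and 10.13 on GT/M2, a difference of 0.51. Ccl2 was at 5.42 on GT/M2TAD and 5.76 on GT/M2, near background on both.

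Ccl17 lies on chromosome 8 beside Cx3cl1 and Ccl22, another ligand of Ccr4 and likewise a product of dendritic cells. Among measured protein-coding genes in the RefSeq order, these were the nearest on 1 side and Ciapin1 and Coq9 the nearest on the other. Ccl22 stayed between 2.35 and 3.16 on all arrays, and had 2.93 on GT/M2TAD and 3.16 on GT/M2. Cx3cl1 had 5.48 on GT/M2TAD and 5.30 on GT/M2, a difference of 0.17, and Ciapin1 and Coq9 differed by -0.55 and -0.51 between these arrays. Of the 5 measured genes on each side, the difference between GT/M2TAD and GT/M2 was largest in size at Ciapin1, and Ccl17 stood alone at 5.24.

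**Figure D2:**
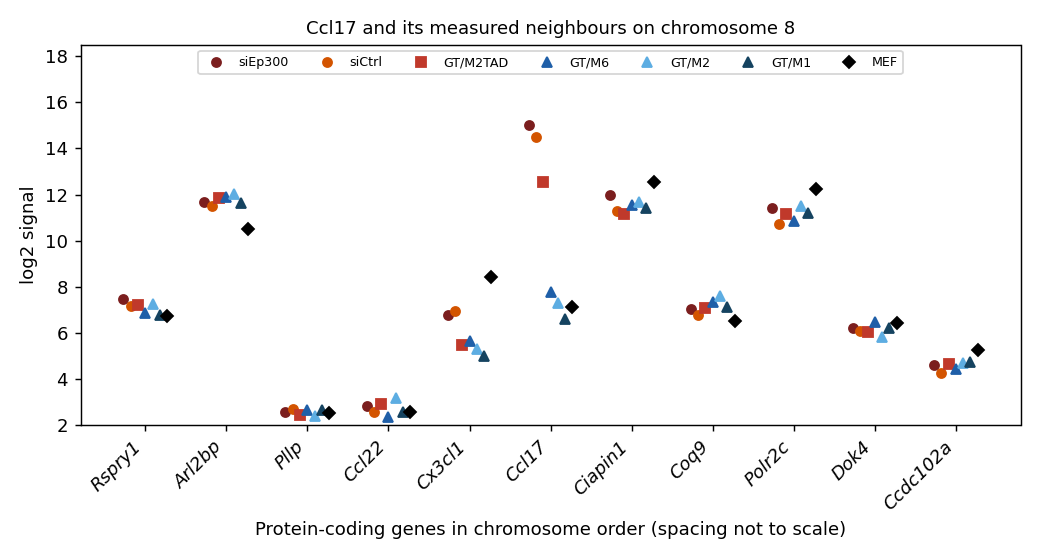
Log2 signal (vertical axis) of Ccl17 and the 5 nearest measured protein-coding genes on each side (horizontal axis, chromosome order, not to scale) on the 7 arrays (symbols). Ccl17 is at 12.52 to 15.03 on siEp300, siCtrl and GT/M2TAD and at 6.59 to 7.76 on the other 4 arrays, while Ccl22 stays between 2.35 and 3.16.

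Ccl2 had the largest negative difference from untreated cells among the members. It encodes the main attractant of monocytes, which acts on the receptor Ccr2. Its signal was 7.18 on siEp300, 6.17 on siCtrl, 5.42 on GT/M2TAD, 6.30 on GT/M6, 5.76 on GT/M2, 6.83 on GT/M1 and 11.96 on MEF. Only the MEF array was above the negative-control percentile, and all 6 transduced arrays lay at least 4.78 below it. The 5 genes next to Ccl2 on 1 side along chromosome 11 are Ccl7, Ccl11, Ccl12, Ccl8 and Ccl1. Ccl7, a monocyte attractant that acts on some of the same receptors, had 7.88 on siEp300, 7.86 on siCtrl, 6.77 on GT/M2TAD, 8.25 on GT/M6, 7.76 on GT/M2, 7.94 on GT/M1 and 8.80 on MEF. Its order was like that of Ccl2 at the ends, highest on MEF and lowest on GT/M2TAD, with all signals below the percentile. Ccl12 and Ccl1 varied by 0.61 each over the arrays, at signals between 2.72 and 3.39. Ccl11, an attractant of eosinophils, lay between 3.05 and 4.31. Ccl8 had 5.73 on siEp300 and 5.35 on siCtrl, against 3.51 to 3.82 on the other 5 arrays. All these signals lay below the negative-control percentile.

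Cxcl12 was the member detected most widely. It encodes the ligand of Cxcr4 and Ackr3 that stromal cells make for blood stem cells and for vessels. Its signal was 13.03 on siEp300, 12.84 on siCtrl, 10.64 on GT/M2TAD, 9.85 on GT/M6, 10.13 on GT/M2, 9.18 on GT/M1 and 13.12 on MEF. It passed the negative-control percentile on 6 arrays, and on GT/M1 it lay just under the 9.33 of that array. The siEp300, siCtrl and MEF arrays were high, and the 4 arrays with a form of Mef2c and no siRNA were all lower. This split was drawn from the Cxcl12 values, and how many other genes show it was not counted. The summed signal of the fibroblast markers, 7 measured of 8 listed, was lower on the same 4 arrays, although their order within the 4 differed from that of Cxcl12. On the log2 scale it was 16.82 on siEp300, 16.86 on siCtrl, 15.74 on GT/M2TAD, 15.57 on GT/M6, 14.65 on GT/M2, 15.77 on GT/M1 and 16.90 on MEF. The markers did not all go one way. Dcn, a matrix proteoglycan, was 5.73, 4.98 and 6.70 higher than MEF on GT/M6, GT/M2 and GT/M1, and at 15.24 was the largest part of the GT/M1 sum. Thy1, a surface antigen, was 1.66 higher on GT/M2TAD. Col1a1, Col1a2, Col3a1, Pdgfrb and S100a4 were 2-fold lower than MEF on all 4 arrays. The part of these markers in the Cxcl12 values was not tested.

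**Figure D3:**
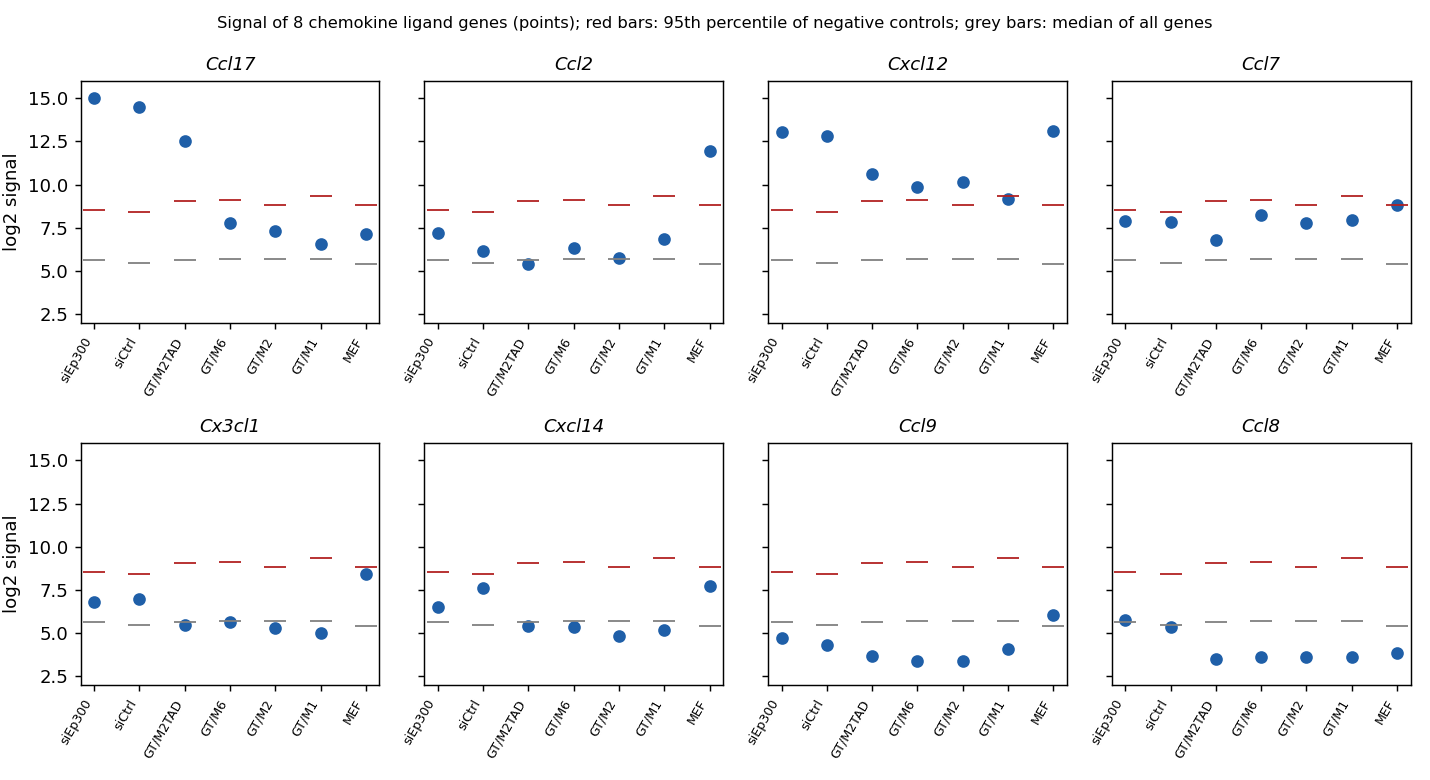
Log2 signal (points) of 8 chemokine ligand genes on the 7 arrays (horizontal axis, 1 array per group); red bars are the 95th percentile of negative controls and grey bars the median of all named genes of each array. Ccl17 is high on siEp300, siCtrl and GT/M2TAD, Ccl2 on MEF, and Cxcl12 on siEp300, siCtrl and MEF; the other 5 genes lie below the red bars on every array.

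Cx3cl1, Cxcl14 and Ccl9, like Ccl2 and Cxcl12, had their highest signal on MEF. They were chosen for description after their values were seen, and none reached the negative-control percentile. Cx3cl1, the membrane-bound chemokine fractalkine, had 6.79 on siEp300, 6.95 on siCtrl, 5.48 on GT/M2TAD, 5.65 on GT/M6, 5.30 on GT/M2, 4.98 on GT/M1 and 8.43 on MEF. Cxcl14, a chemokine of skin and stroma, had 6.49 on siEp300, 7.60 on siCtrl, 5.40 on GT/M2TAD, 5.35 on GT/M6, 4.83 on GT/M2, 5.17 on GT/M1 and 7.72 on MEF. In both, the MEF signal was the highest and the siRNA arrays lay between it and the 4 arrays without siRNA. Ccl9 had 4.71 on siEp300, 4.33 on siCtrl, 3.65 on GT/M2TAD, 3.39 on GT/M6, 3.40 on GT/M2, 4.07 on GT/M1 and 6.02 on MEF. The MEF signals of Cx3cl1, Cxcl14 and Ccl9 stood at or above 93.8%, 89.8% and 70.4% of the negative-control probes of that array. The endothelial marker list, 6 genes, had a log2 summed signal of 9.20 on MEF against 6.44 to 7.53 on the transduced arrays. Kdr, at 8.96 on MEF, was the largest part of that sum and alone reached the percentile, on MEF. Of the others, Cdh5 and Emcn were highest on MEF too, and Pecam1, Tek and Vwf were not. The part of these markers in the Cx3cl1 values was not tested.

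Each form of Mef2c was compared with untreated cells. On GT/M1, Ccl2 at -5.12 and Cxcl12 at -3.94 were counted as 2-fold lower, 2 of 38 members, and 0 were higher, against 6.42% lower and 6.53% higher of all genes. On GT/M2 the same 2 genes were lower, at -6.19 and -2.99, and 0 members were higher, against 5.48% and 8.18% of all genes. On GT/M6 they were lower at -5.65 and -3.26, with 0 members higher, against 6.01% and 7.37% of all genes. On GT/M2TAD they were at -6.53 and -2.47, against 6.4% of all genes lower, and Ccl17 was higher at 5.38, against 8.35% higher. These comparisons share the MEF array. The 2 lower genes are 5.26% of the members, near the share of all genes in each comparison, so the count says nothing particular about chemokine ligands. The median difference of the members was -0.29 for GT/M2TAD, -0.18 for GT/M6, -0.23 for GT/M2 and -0.18 for GT/M1. Over all genes it was 0.091, 0.077, 0.072 and 0.089 in the same order. Most of the members behind these medians were below the negative-control percentile.

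The siRNA arrays were set against MEF as well. On siCtrl, Ccl17 was higher at 7.33 and Ccl2 lower at -5.79, with 7.26% of all genes higher and 7.08% lower. On siEp300, Ccl17 was higher at 7.89 and Ccl2 lower at -4.78, with 8.8% of all genes higher and 6.15% lower. Cxcl12 differed from MEF by -0.28 on siCtrl and by -0.08 on siEp300, less than 2-fold.

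**Figure D4:**
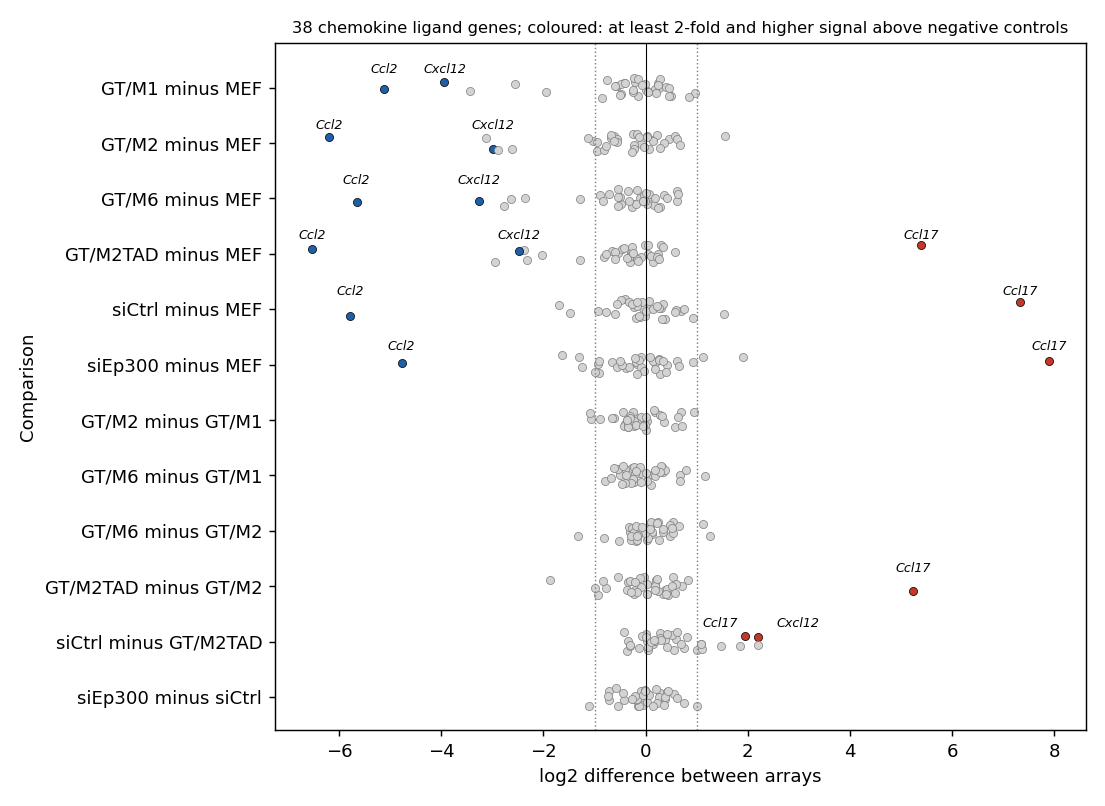
Log2 difference (horizontal axis) of each of the 38 chemokine ligand genes (points, spread vertically for sight) in 12 comparisons of 1 array with 1 array (rows); coloured points were at least 2-fold apart with the higher signal at the 95th percentile of negative controls. Ccl2 lies at the low end in the 6 comparisons with MEF, between -6.53 and -4.78. Ccl17 is the highest point for GT/M2TAD, siCtrl and siEp300 against MEF and for GT/M2TAD against GT/M2.

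Among the native isoforms of Mef2c, no member was counted as 2-fold apart between GT/M2 and GT/M1, where 1.62% of all genes were, between GT/M6 and GT/M1, where 0.374% were, or between GT/M6 and GT/M2, where 1.81% were. At these shares of all genes, a count of 0 among 38 says nothing particular about chemokine ligands. Cxcl12 differed by 0.95, 0.67 and -0.28 in these comparisons. Cxcl16, a membrane-bound ligand of Cxcr6, had 6.81 on GT/M6, 5.55 on GT/M2 and 6.62 on GT/M1, all below the negative-control percentile.

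The difference that goes with siRNA against Ep300 was read from siEp300 against siCtrl. No member was counted as 2-fold apart, against 0.631% of all genes. At this share of all genes, the absence of members from the count says nothing particular about chemokine ligands. Ep300 itself was at 9.47 on siEp300 and 9.90 on siCtrl, and between 9.87 and 10.22 on the other 5 arrays. Ep300 was lowest on siEp300, but it was not 2-fold apart from siCtrl, so the rule does not show its knockdown. Whether the members respond to a loss of p300 was therefore not tested. Ccl17 was 0.55 higher on siEp300 and Cxcl12 0.19 higher. Ccl2 was at 7.18 on siEp300 and 6.17 on siCtrl, and Cxcl14 at 6.49 on siEp300 and 7.60 on siCtrl, below the percentile on both arrays. The median difference was -0.034 over the members and 0.14 over all genes.

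The siCtrl array was compared with GT/M2TAD, the form that its characteristics name. Cxcl12 was 2.20 higher on siCtrl and Ccl17 1.95 higher, 2 of 38 members, with 0 lower, against 1.79% of all genes higher and 3.07% lower. Of the 38 members, 31 had a higher signal on siCtrl and 7 a lower one, with a median difference of 0.34, against -0.14 over all genes. The 31 are 81.6% of the members, and 39.9% of all genes were higher on siCtrl. Of the 31, 29 lay below the negative-control percentile on both arrays. Cx3cl1, at 6.95 on siCtrl and 5.48 on GT/M2TAD, and Cxcl14, at 7.60 on siCtrl and 5.40 on GT/M2TAD, differed by more than 1 but lay below the percentile on both arrays.

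The remaining members did not reach the negative-control percentile on any array. Cxcl1, Cxcl2, Cxcl3 and Cxcl5, which attract neutrophils, lay between 2.43 and 5.31 on all arrays. Cxcl1 was highest on MEF at 5.16, and the 6 transduced arrays had 3.87 to 4.40. Cxcl9, Cxcl10 and Cxcl11, ligands of Cxcr3 known as interferon-induced, lay between 2.74 and 4.43, with Cxcl10 at 4.43 on siEp300, 4.36 on siCtrl, 4.21 on GT/M6 and 4.02 on MEF, against 3.08 to 3.42 on GT/M2TAD, GT/M2 and GT/M1. Ccl3, Ccl4 and Ccl5, which attract monocytes and T cells, lay between 2.28 and 4.57. Cxcl13, a B cell attractant, ranged from 3.21 to 5.08, the widest spread of the 26 low members, with its highest signal on GT/M2. Ccl19, Ccl21a, Ccl21b and Ccl21c, ligands of Ccr7, lay between 2.51 and 4.81. Ccl25 and Ccl27a had 6.25 to 6.61 and 6.27 to 7.57, above the median of all genes and below the percentile on every array.

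Receptors and other genes of the pathway were examined next, from lists written with earlier results of these data known. Of 23 chemokine receptor genes 22 were measured, and Ccr6 alone reached the percentile on any array. Ccr6, the receptor of Ccl20, had 4.32 on siEp300, 3.95 on siCtrl, 6.51 on GT/M2TAD, 8.99 on GT/M6, 9.38 on GT/M2, 10.01 on GT/M1 and 3.55 on MEF. It reached the percentile on GT/M2 and GT/M1 and lay just below the 9.14 of GT/M6, GT/M2TAD was lower, and the siRNA arrays were near MEF. By the rule Ccr6 was 2-fold higher on GT/M1 and GT/M2 than on MEF, at 6.46 and 5.83, lower on GT/M2TAD than on GT/M2, at -2.87, and lower on GT/M6 than on GT/M1, at -1.03. Its ligand Ccl20 lay between 4.56 and 4.95 throughout. Receptors of the detected ligands were below the percentile on every array: Ccr4 lay between 2.32 and 3.49, Ccr2 between 2.52 and 3.18, and Cxcr4 between 4.36 and 5.41. Ackr3, which binds Cxcl12 and removes it, had 6.06 on siEp300, 5.51 on siCtrl, 4.48 on GT/M2TAD, 6.72 on GT/M6, 6.31 on GT/M2, 6.06 on GT/M1 and 7.14 on MEF. Cxcr6 had 6.08 on siEp300, 6.46 on siCtrl and 6.42 on GT/M2TAD, against 3.73 on GT/M6, 4.70 on GT/M2, 3.52 on GT/M1 and 3.73 on MEF, all below the percentile.

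Of 15 measured NF-kappaB genes, 0 to 2 were counted as 2-fold higher and 2 or 3 as 2-fold lower in each comparison with MEF. Over all genes, 6.53% to 8.8% were higher and 5.48% to 7.08% lower in these comparisons. Tnfaip3, an inhibitor of the pathway and a target of it, had 7.69 on siEp300, 7.05 on siCtrl, 6.36 on GT/M2TAD, 5.84 on GT/M6, 5.93 on GT/M2, 5.60 on GT/M1 and 9.20 on MEF. Like Ccl2, it was above the percentile on MEF alone, and its difference from MEF lay between -3.60 and -1.52. Nfkbia, which encodes the inhibitor IkappaB-alpha, had 8.63 on siEp300, 8.42 on siCtrl, 9.74 on GT/M2TAD, 8.16 on GT/M6, 10.26 on GT/M2, 8.70 on GT/M1 and 10.28 on MEF. Icam1, an adhesion gene of the same list, was higher, at 8.34 to 9.46 on the transduced arrays and 6.72 on MEF. It was counted as 2-fold higher on siEp300, GT/M6 and GT/M2. Vcam1, another adhesion gene of the list, went the other way, at 8.88 to 10.73 on the transduced arrays and 11.22 on MEF. It was counted as 2-fold lower on siEp300, siCtrl, GT/M2TAD and GT/M2.

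Of 15 inflammatory cytokine and receptor genes, 0 to 2 were counted as 2-fold higher and 1 as 2-fold lower in each comparison with MEF. Over all genes, 6.53% to 8.8% were higher and 5.48% to 7.08% lower. The lower gene was Csf1 on all 6 transduced arrays. Csf1, the growth factor of macrophages, had 14.22 on siEp300, 14.91 on siCtrl, 13.65 on GT/M2TAD, 14.61 on GT/M6, 13.29 on GT/M2, 15.06 on GT/M1 and 17.33 on MEF. Lif had 10.76 on siEp300 and 10.90 on siCtrl, against 9.34 to 9.57 on the arrays without siRNA. It was counted as 2-fold higher than MEF on siEp300, at 1.39, and on siCtrl, at 1.52. Il1b, Il6 and Tnf were below the percentile on every array. Il33 had a higher signal on all 6 transduced arrays than on MEF. It was counted as 2-fold higher on GT/M2, at 5.09, and on siEp300, at 3.08. Its difference from MEF was 3.57 on GT/M1, 3.21 on GT/M6, 2.91 on GT/M2TAD and 2.30 on siCtrl. On these arrays Il33 lay below the percentile, so it was not counted there. Of 10 measured interferon factors and receptors, 2 or 3 were higher and 0 lower on each transduced array than on MEF, with Stat2 between 2.31 and 4.49 higher, beside the 6.53% to 8.8% higher and 5.48% to 7.08% lower of all genes. With 10 genes, the count is small. Of 10 genes for the processing and presentation of chemokines, 2 were higher and 4, 4, 5 and 3 lower on GT/M2TAD, GT/M6, GT/M2 and GT/M1 than on MEF. On siEp300 2 were higher and 2 lower, and on siCtrl 1 was higher and 2 lower, beside the same shares of all genes. The proteoglycan gene Gpc1 was between 3.81 and 4.58 higher on the 6 transduced arrays. Mmp2, a protease that cuts several chemokines, was lower on the 4 arrays without siRNA, between -3.16 and -1.09, and differed from MEF by 0.15 on siCtrl and 0.38 on siEp300.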

How the data were processed

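RNA of 7 cultures was measured on 7 mouse Clariom S arrays, 1 per group. The deposited table holds log2 signals, made with the SST-RMA method per the series text and in Affymetrix Expression Console 1.4 per the submitters' processing notes. The settings are not given in the sources used here. Per the labels' protocols, 100 ng of RNA with an integrity number above 7 entered labelling. RMA-type values compress differences near background, and scaling the arrays to each other can remove a shift common to most genes.

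Of 28846 rows, 19572 had a gene symbol. They covered 19505 genes, and the probe set with the highest mean stood for each of the 55 genes that had more than 1. All 38 members matched the RefSeq table of GRCm38.p6. The 5222 negative-control probes gave each array's 95th percentile. No test was possible with 1 array per group, so genes were counted by the rule of size given in the results. The 12 comparisons were recomputed with other floors, folds, scalings, probe-set rules and members. The counting was tested on simulated data. Members at the percentile on any array are given on every array, and the others by range. In the pathway lists, up to 4 genes that were 2-fold apart in a comparison may be named, with receptors of detected ligands. Other named genes were chosen after their values were seen. The members and lists were chosen with earlier results of these data known. Python 3.11.15, numpy 2.4.6, pandas 2.3.3, statsmodels 0.14.6 and matplotlib 3.10.9 were used.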

Additional observations from a re-analysis of the deposited data

How the results depend on the processing

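Ccl2, Ccl17 and Cxcl12 kept their side of the 2-fold rule in all 12 comparisons under median centring, quantile normalization and level-dependent centring. These genes have 1 probe set each, so the mean of probe sets could not change their values, which make up 36 of the 144 recomputed. Of the 144 values 3 changed sign, all for Ccl17 on GT/M2 against MEF. It was 0.15 as deposited and -0.18, -0.23 and -0.20 under the 3 scalings. The counts of members depended on the floor. With the higher signal only at the array's median, 5 members were 2-fold apart from MEF for GT/M1, 6 for GT/M2 and 5 for GT/M6. There were 7 for GT/M2TAD, 4 for siCtrl and 7 for siEp300. These are 10.5% to 18.4% of the members, beside 21.8% to 23.5% of all genes. The same floor gave 2 for GT/M2 and 1 for GT/M6 against GT/M1, and 1 for GT/M6 against GT/M2. It gave 5 for siCtrl against GT/M2TAD and 2 for siEp300 against siCtrl. Of all genes, 3.29%, 0.938%, 3.56%, 9.42% and 2.32% were counted there, in the same order. With no floor the counts against MEF were 5, 8, 6, 8, 5 and 7, in the order of those against MEF above. The others were 2, 1, 3, 8 and 2, with 2 for GT/M2TAD against GT/M2. Among the negative-control probes, 13.1% to 26.6% passed the rule with the median floor and 1.78% to 3.79% with the stricter floor. At 4-fold, siCtrl against GT/M2TAD had 1 member. No share of all genes was counted with no floor or at 4-fold. Median centring gave member medians of -0.48 for GT/M1, -0.55 for GT/M2, -0.51 for GT/M6, -0.55 for GT/M2TAD and -0.34 for siEp300 against MEF, 0.53 for siCtrl against GT/M2TAD and -0.20 for siEp300 against siCtrl. It moved the median of all genes against MEF to between -0.25 and -0.06. For siEp300, quantile normalization gave -0.26 against MEF and -0.17 against siCtrl, and level-dependent centring gave -0.23 against MEF and -0.18 against siCtrl. Over only the members at the negative-control percentile, 1 to 3 genes a comparison, the medians against MEF were -4.53 for GT/M1, -4.59 for GT/M2, -4.46 for GT/M6, -2.47 for GT/M2TAD and -0.28 for siCtrl. They were 0.95 for GT/M2 and 0.67 for GT/M6 against GT/M1, -0.28 for GT/M6 against GT/M2, 2.88 for GT/M2TAD against GT/M2, 2.08 for siCtrl against GT/M2TAD and 0.37 for siEp300 against siCtrl. These last follow from leaving out the members below the percentile. Median centring subtracts each array's own median from all its genes, so the changes it made follow from the array medians. These were 5.68 on GT/M1 and 5.38 on MEF, for instance. For the remaining changes the cause was not tested. No paired analysis was possible because each group had 1 array. Members below the percentile did not pass the strict limit of the negative controls, so their signals are not shown to differ from background.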

Other observations

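A description of which other genes shared the arrays of Ccl17 was made after its values were seen. For each of 4493 genes detected on siEp300, siCtrl and GT/M2TAD, the lowest signal on those arrays was set against the highest on the other 4. The gap was 4.77 for Ccl17 and 4.82 for Nr4a3, a nuclear receptor gene induced early after stimulation, which ranked before it. Nr4a3 had 12.20 on siEp300, 11.80 on siCtrl, 12.17 on GT/M2TAD, 6.36 on GT/M6, 6.98 on GT/M2, 6.79 on GT/M1 and 5.52 on MEF. The gap was 3.66 for Xirp2, which encodes an actin-binding protein of muscle, 2.56 for Itga7, a laminin receptor of muscle, and 2.43 for Myl1, a myosin light chain of fast skeletal muscle. The related genes Nr4a1 and Nr4a2 had gaps of 2.30 and 1.66. In all, 54 genes had a gap of at least 1.

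For Ccl2, the MEF signal was set in the same way against the highest of the 6 transduced arrays, over 5112 genes detected on MEF. Its gap of 4.78 ranked 14, and 655 genes had a gap of at least 1. The widest were 7.09 for Dlk1, a Notch-related gene of fetal mesenchyme, 6.27 for Plaur, the urokinase receptor, and 5.96 for Foxs1, a forkhead factor.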
